A study of Homo sapiens with 35 samples.

Results

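Gene deserts are long stretches of the genome without protein-coding genes, and the peaks described here are the sites of open chromatin that lie deepest in them. A peak was taken when its summit lay outside every RefSeq protein-coding gene and more than 250 kb from the nearest end of one. On chromosomes 1 to 22 this held for 16201 of 301177 peaks, or 5.38%, in 656 deserts that together span 468 Mb. The peaks came from ATAC-seq, in which a transposase cuts and tags accessible DNA, in human blood progenitors. They were differentiated from H1, a long-established line of embryonic stem cells.

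The study induced MYC, a transcription factor of cell growth, in such progenitors by adding doxycycline. The labels describe 35 libraries, all from H1-derived cells: 12 of the doxee17 line with doxycycline and 11 of doxee17 without it, both in batch 1, and 12 of untreated H1 in batch 2. They span 6 days of differentiation from day 10 to day 20 in 18 groups of line, treatment and day, and the design text counts 44 libraries. The labels say no more of doxee17 than that it is H1-derived. The deposited values are a single peak list made over libraries, with no value for any one of them. Treated and untreated cells, days and batches therefore cannot be told apart, no value below has a replicate error, and no expression value was at hand to check the cell type by its markers.

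Open chromatin far from genes is often formed by enhancers, short elements that bind transcription factors and can act on a promoter over long distances. Deserts beside genes of development and of cell identity are known to hold many of them. Others are bordered by genes of the nervous system, and parts of the deserts next to centromeres and on the short arm of chromosome 21 consist of repeated sequence, of which the reference genome holds only some copies. A desert without coding genes can still hold genes for long non-coding RNAs (lncRNAs), microRNAs (miRNAs) and ribosomal RNA, and pseudogenes, which are copies of genes that have lost their function.

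The promoters of 4 lncRNA genes in deserts are printed because they show both kinds of start that carried strong peaks, with many and with few CpG dinucleotides. Each is the RefSeq sequence (GRCh38.p14) from 250 bases before to 50 bases after the annotated start, 5′ to 3′ on the gene's strand, and capitals mark matches to the searched blood factor motifs. The start of LINC00662 (chr19:27793891-27794190, minus strand) lay under a peak of 123-fold enrichment and holds 20 CpG and 1 ETS match (AGGAAG or its reverse complement). The start of MIR4458HG (chr5:8457437-8457736, plus strand) lay under a 75.1-fold peak and holds 26 CpG and none of the 6 motifs. The start of LINC00299 (chr2:8328370-8328669, minus strand) lay under an 81.7-fold peak in the desert before ID2 and holds 3 CpG and 2 ETS matches. The start of LOC102724463 (chr6:14658901-14659200, plus strand) lay under a 19.5-fold peak in the densest desert, between CD83 and JARID2, and holds 3 CpG, 2 RUNX matches (TGTGGT), 1 ETS match and 1 E-box (CACGTG).
LINC00662: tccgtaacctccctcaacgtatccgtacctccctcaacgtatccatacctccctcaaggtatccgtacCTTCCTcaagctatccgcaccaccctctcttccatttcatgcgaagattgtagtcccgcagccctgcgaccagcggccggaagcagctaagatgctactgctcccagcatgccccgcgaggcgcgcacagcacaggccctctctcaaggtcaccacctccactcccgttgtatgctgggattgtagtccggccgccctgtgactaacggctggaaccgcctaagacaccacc
MIR4458HG: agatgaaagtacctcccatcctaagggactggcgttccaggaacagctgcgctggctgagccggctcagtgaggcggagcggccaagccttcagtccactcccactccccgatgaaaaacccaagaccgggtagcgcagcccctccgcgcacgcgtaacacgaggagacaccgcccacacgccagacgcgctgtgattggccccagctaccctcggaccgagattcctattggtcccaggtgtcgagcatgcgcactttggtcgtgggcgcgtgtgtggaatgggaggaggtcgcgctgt
LINC00299: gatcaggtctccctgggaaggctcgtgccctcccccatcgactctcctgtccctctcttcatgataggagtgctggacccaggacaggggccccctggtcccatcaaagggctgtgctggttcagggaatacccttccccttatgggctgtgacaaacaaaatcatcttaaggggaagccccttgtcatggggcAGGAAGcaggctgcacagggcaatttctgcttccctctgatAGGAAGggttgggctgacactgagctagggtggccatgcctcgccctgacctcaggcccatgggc
LOC102724463: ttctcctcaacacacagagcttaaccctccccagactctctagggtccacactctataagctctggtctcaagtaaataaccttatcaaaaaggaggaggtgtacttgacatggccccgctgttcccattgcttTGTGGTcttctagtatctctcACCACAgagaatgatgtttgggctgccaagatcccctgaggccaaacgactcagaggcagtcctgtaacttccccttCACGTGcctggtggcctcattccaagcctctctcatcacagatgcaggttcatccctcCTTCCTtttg

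Of the 63 miRNA hairpins of the RefSeq table that lie in deserts, 5 lay under a peak, and their mature forms are shown with the seed (bases 2 to 8), which pairs with target RNAs, in capitals. MIR802 lay under a weak peak of 3.28-fold in the desert between RUNX1 and SETD4. The other 4 hairpins lay on the short arm of chromosome 21 under peaks of 331- to 581-fold. Of these, MIR6724-4 and MIR10396B lay under the same peak of 40487 bp, and the desert summit nearest to each had only 4.53-fold. The share under a peak among the 1461 autosomal hairpins at hand was not counted, so the 5 of 63 have no background beside them. The MIR6724-2 and MIR6724-4 hairpins give the same mature sequence, and the 3p forms of miR-10396a and miR-10396b share the seed GCCCCGG. The 5p forms of miR-10396a and miR-10396b are not printed, and their seeds differ (GCGGGGC and GGCGGGG).
hsa-miR-802: cAGUAACAaagauucauccuugu
hsa-miR-6724-5p: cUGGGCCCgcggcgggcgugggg
hsa-miR-10396a-3p: gGCCCCGGgcccucgaccggg
hsa-miR-10396b-3p: gGCCCCGGgcccucgaccggac

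The height of a peak is its fold enrichment, a linear ratio of the reads piled up at the summit to a background that was the same for the whole genome. The desert peaks had a median of 3.15-fold, with quartiles of 2.15- and 6.15-fold. The weakest had 1.36-fold and the strongest 742-fold. The median corresponds to a pileup of 297 against a background of 93.5. For a single peak of that height the exact Poisson 95% interval, which covers counting error only, runs from 2.81- to 3.53-fold. It is not an interval for the median of the class. The median width was 404 bp, and the peaks together covered 8.27 Mb. Fold enrichments under 5 made up 69.0% of the desert peaks, and 19.0% were under 2-fold.

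Open chromatin was sparse in deserts. There were 34.6 peaks per Mb of desert, against 110 per Mb in near intergenic sequence, which lies outside coding genes at 1 to 250 kb from their ends. Each of the 22 autosomes had fewer per Mb in its deserts (exact two-sided sign test over autosomes, adjusted p = 1.43e-06 over the 12 tests of this kind). Among single autosomes the density ran from 18.4 to 47.2 per Mb in deserts and from 82.5 to 144 per Mb in near intergenic sequence, so the ranges did not overlap. A second comparison used deep genic peaks, which lie inside long coding genes at the same distance of more than 250 kb from any gene end. Their density was 47.8 per Mb, and deserts had fewer on 18 of 21 autosomes (exact sign test, adjusted p = 0.00255). That call was lost when the distance was set at 500 kb (exact sign test, adjusted p = 0.641) or when every RefSeq gene bounded a desert (adjusted p = 0.815).

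Desert peaks were lower and narrower than near intergenic peaks. The median was 3.15-fold in deserts and 3.51-fold in near intergenic sequence, lower in deserts on 20 of 22 autosomes (exact sign test, adjusted p = 0.000242). Peaks of 10-fold or more numbered 2241 in deserts, or 13.8%, against 21.5% of near intergenic peaks and a background of 22.2% of all autosomal peaks. That share was lower in deserts on 22 of 22 autosomes (exact sign test, adjusted p = 1.43e-06). The median width was 404 bp in deserts and 472 bp in near intergenic sequence, again lower on 22 of 22 (exact sign test, adjusted p = 1.43e-06). When every RefSeq gene bounded a desert, 497 desert peaks were left, and neither the fold nor the share of strong peaks passed the test (exact sign test, adjusted p = 0.0618 for each).

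Against deep genic peaks these differences were small and did not pass the test. The median was 3.15-fold in deserts and 3.25-fold in deep genic sequence, lower in deserts on 13 of 21 autosomes (exact sign test, adjusted p = 0.383). The share at 10-fold or more was 13.8% in deserts and 14.3% in deep genic sequence (lower on 14 of 21, exact sign test, adjusted p = 0.206). The median width was 404 bp in deserts and 410 bp in deep genic sequence (lower on 14 of 21, exact sign test, adjusted p = 0.206). The sign of the fold difference turned under 2 of 8 alternatives, with 100 kb as the distance and with the less significant peaks left out. The plot of fold enrichment shows the curves of the 2 classes running close together, with the near intergenic curve above both beyond 10-fold.

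**Figure D1:**
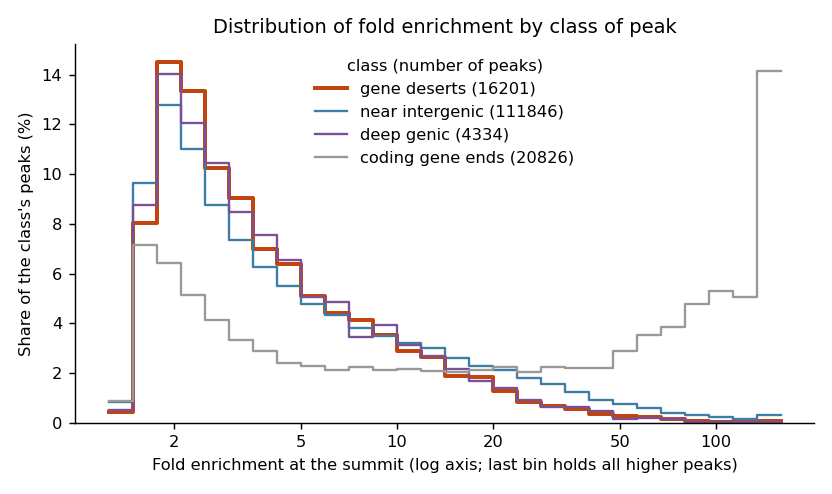
Share of the peaks of each class (%) by fold enrichment at the summit on a log axis, for gene deserts (16201 peaks), near intergenic, deep genic and coding gene ends (summit within 1 kb of an end). The last bin holds every higher peak; desert and deep genic curves lie close together, and peaks at coding gene ends reach far higher, with a median of 20.7-fold.

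The decline went on within the deserts, as the bars by distance show. Density was 165 peaks per Mb at 1 to 10 kb from a coding gene end, 69.3 at 100 to 250 kb, 44.0 at 250 to 500 kb, 30.3 at 500 to 1000 kb and 18.9 beyond 1000 kb. The share at 10-fold or more was 23.6%, 17.0%, 14.9%, 13.1% and 9.92% in the same bins. The 1582 peaks beyond 1000 kb had a median of 2.94-fold. Values on both sides of the 250 kb limit were close. The 1538 peaks at 250 to 275 kb had a median of 3.20-fold and 14.8% at 10-fold or more, and the 1927 peaks at 225 to 250 kb had 3.34-fold and 16.5%. The member nearest to the limit lay 250017 bp from a gene end, at 3.29-fold, and the nearest peaks left out lay at 249976 bp, at 12.7- and 2.29-fold.

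**Figure D2:**
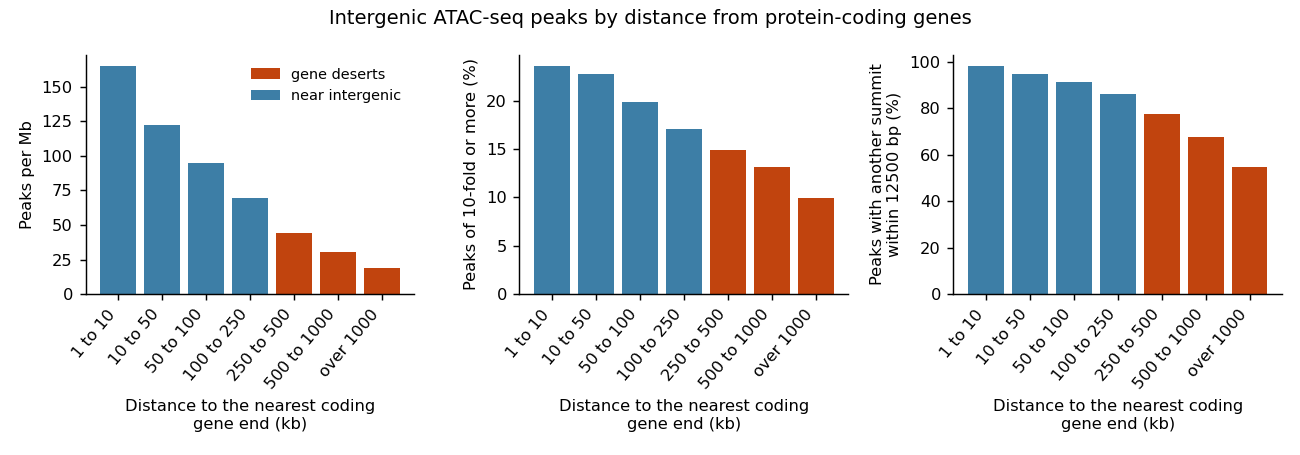
Bars give peaks per Mb, the share of peaks of 10-fold or more (%) and the share with another summit within 12500 bp (%) of intergenic peaks, by distance to the nearest coding gene end (kb). Bins in deserts and near intergenic bins differ in colour; all 3 values fall from bin to bin, and no test was run across bins.

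Desert peaks also stood more alone. Another summit lay within 12500 bp of 72.3% of desert peaks, against 93.7% of near intergenic peaks and a background of 93.4% of all autosomal peaks. The share was lower in deserts on 22 of 22 autosomes (exact sign test, adjusted p = 1.43e-06). It was 78.5% in deep genic sequence, and deserts were lower there on 15 of 21 autosomes, which did not pass the test (exact sign test, adjusted p = 0.104). A lower density by itself leaves fewer close neighbours, and its part in this difference was not tested. Joining desert summits up to 12500 bp apart gave 7734 groups, of which 4549 were single peaks. Single peaks had a median of 2.94-fold, and 443 of them, or 9.74%, reached 10-fold. The 593 groups of at least 5 peaks held 5057 peaks, or 31.2%, with a median of 3.47-fold, and 910 of them, or 17.99%, reached 10-fold. Of all desert peaks 13.8% reached 10-fold, above the share of single peaks and below that of these groups. Both shares were below the 22.2% of all autosomal peaks.

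Peaks were spread unevenly over the deserts. Of the 656 deserts, 112 held 50% of the peaks, and the 10 with most peaks held 1409, or 8.70%. There were 41 deserts without a peak, with a median length of 16.1 kb and a longest of 0.581 Mb. Whether reads can be placed in them was not checked. Of the 294 deserts of 500 kb or more, the quartiles were 21.4 and 42.5 peaks per Mb around a median of 28.8, 11 had at least 100 and 19 had fewer than 10. At least 1 peak of 10-fold or more lay in 468 of the 656 deserts.

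**Figure D3:**
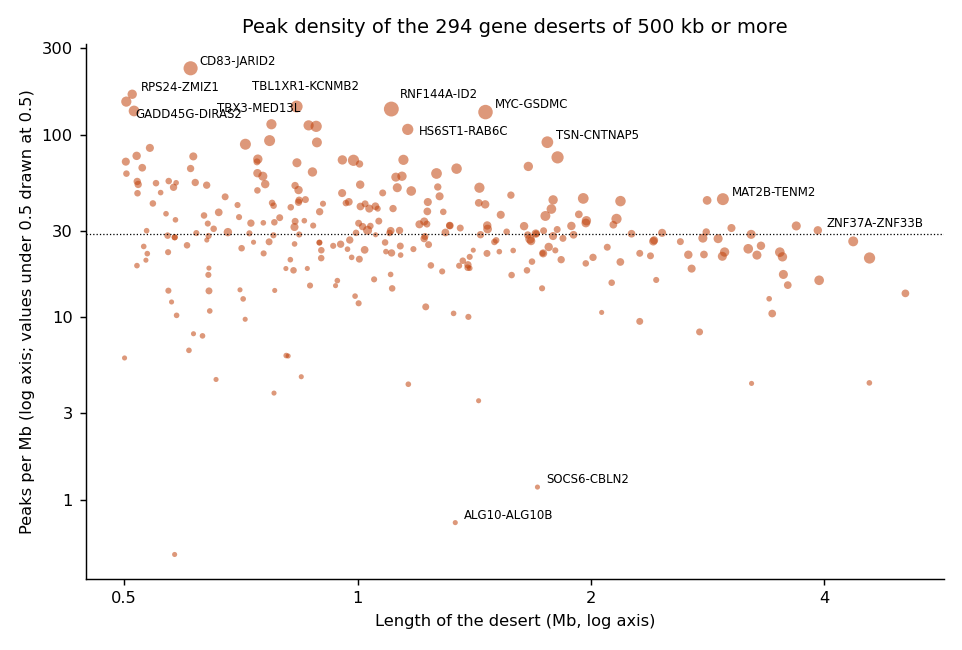
Peaks per Mb (log axis) against length in Mb (log axis) for the 294 deserts of 500 kb or more, with points drawn larger for more peaks of 10-fold or more the dotted line at the median of 28.8 per Mb and the desert without a peak drawn at the floor of the axis. The names give the bordering coding genes of described deserts; CD83-JARID2 is at the top and ALG10-ALG10B near the bottom.

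The densest desert lay between CD83, a surface protein of mature dendritic cells, and JARID2, a partner of the repressive Polycomb complex PRC2. It held 142 peaks in 0.609 Mb, or 233 per Mb. Of these, 31 or 21.8% reached 10-fold, against 13.8% of all desert peaks and 22.2% of all autosomal peaks. Its highest peaks, of 80.4-fold (chr6:14710604-14712163) and 77.5-fold (chr6:14734024-14736218), lay 574 and 598 kb from CD83, close to the middle of the gap. The density in the desert was above the 169 per Mb of the intergenic sequence within 250 kb of the same genes. One group of 39 joined peaks ran over 126 kb with a median of 6.01-fold, and a second group of 30 peaks over 89.0 kb had a median of 6.54-fold.

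The desert between MYC and GSDMC held more peaks than any other, 196 in 1.46 Mb or 134 per Mb. Of these, 33 or 16.8% reached 10-fold, against 13.8% of all desert peaks and 22.2% of all autosomal peaks. MYC is the gene the study expresses ectopically, and the far side of this desert is known to hold enhancers used by blood cells. The highest peak, of 78.9-fold, lay 814 kb from MYC within the lncRNA gene LINC00824. The next had 73.9-fold at 306 kb from MYC, and the third had 68.9-fold at 1678 kb from MYC and 285 kb from GSDMC. Density was 134 per Mb in the desert and 269 per Mb in the intergenic sequence within 250 kb of both genes. Whether any of these peaks differed with doxycycline was not tested, because the list has no value for a treatment.

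In the desert between RNF144A and ID2, 154 peaks lay in 1.11 Mb (139 per Mb), and 35 of them, or 22.7%, reached 10-fold. That share was near the 22.2% of all autosomal peaks and above the 13.8% of all desert peaks. ID2 is an inhibitor of helix-loop-helix transcription factors with a role in lymphoid and dendritic cell development, known from mice. The peaks lay mostly on the side of ID2. There, 93 peaks formed the largest joined group of all deserts, over 324 kb (chr2:8107148-8431273), with 24 of at least 10-fold. The 3 highest, of 96.2-, 85.2- and 83.1-fold, lay 383, 380 and 347 kb from ID2, and the first 2 lay within LINC00299. The start of LINC00299 printed above lay in the same group, under the 81.7-fold peak.

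Several other dense deserts had peaks gathered at one end. The TSN to CNTNAP5 desert held 161 peaks at 91.6 per Mb, and 38 of them fell in 100 kb that began 328 kb from TSN, which encodes the nucleic acid binding protein translin. CNTNAP5, at the other end, belongs to a family of neuronal adhesion proteins. One joined group here held 54 peaks over 154 kb, with a highest peak of 69.1-fold. The HS6ST1 to RAB6C desert held 125 peaks, of which 61 formed one group of 183 kb. HS6ST1 encodes a heparan sulfate sulfotransferase. The GADD45G to DIRAS2 desert held 77 peaks at 153 per Mb, and 42 formed one group of 166 kb. GADD45G is a stress response gene.

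**Figure D4:**
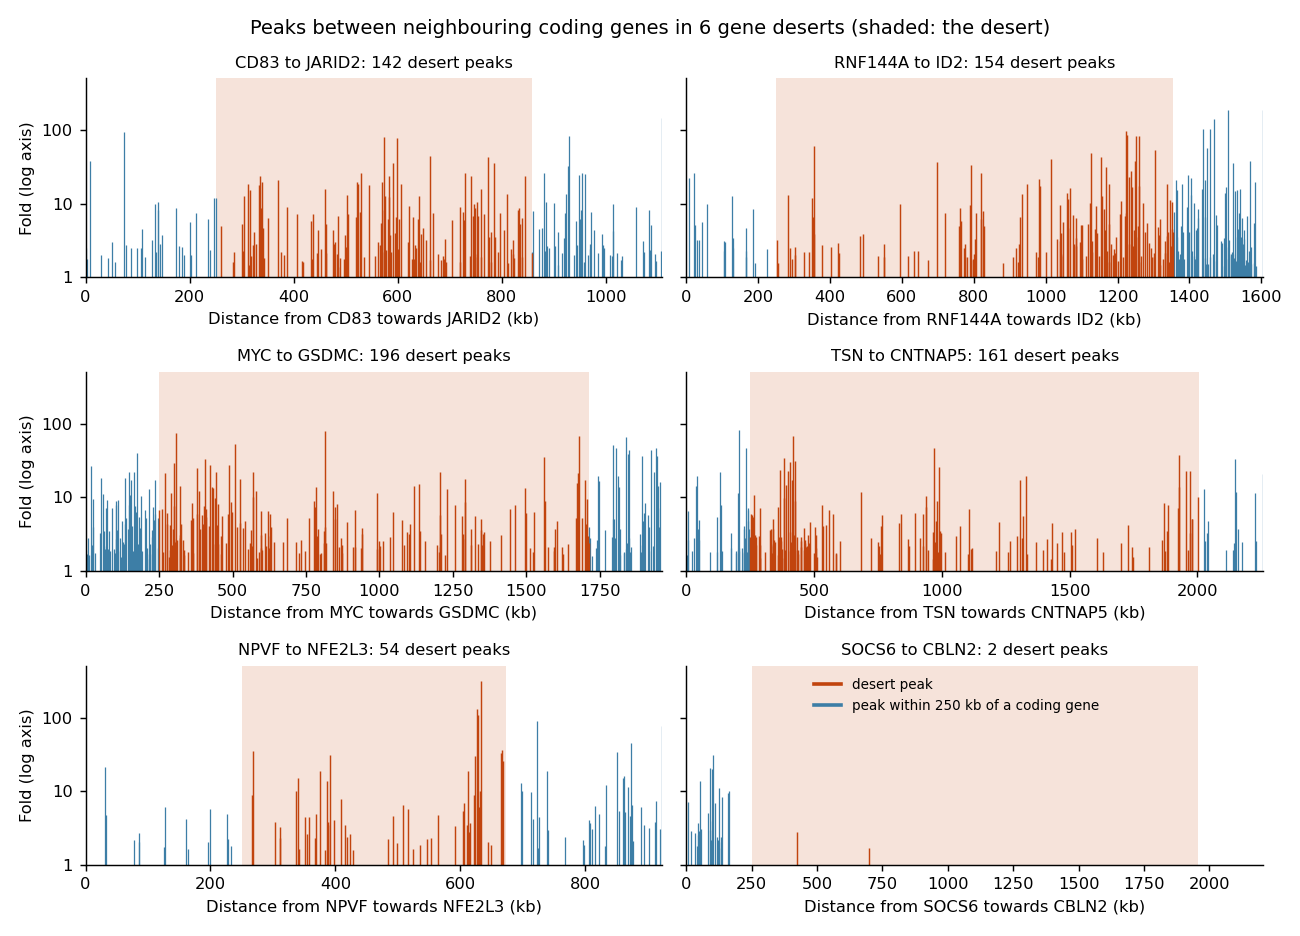
Each panel plots the peaks between the bordering coding genes of 1 desert, with distance from the gene on the left (kb) against fold enrichment (log axis); the shaded stretch is the desert and the other colour marks peaks within 250 kb of a coding gene. The panel between NPVF and NFE2L3 holds the 315-fold peak, and the panel between SOCS6 and CBLN2 holds 2 weak desert peaks.

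The remaining deserts with most peaks or the highest density were bordered by genes of many roles. RPS24 to ZMIZ1 had 168 peaks per Mb and a highest peak of 66.0-fold, and ZMIZ1 encodes a transcriptional coactivator. TBL1XR1 to KCNMB2 had 144 per Mb and 120 peaks, and TBL1XR1 is a subunit of the NCoR corepressor complex. The desert beside RASGRP1, an activator of Ras in lymphocytes, had 136 per Mb. Of its 70 peaks, 16 or 22.9% reached 10-fold, near the 22.2% of all autosomal peaks. TBX3 to MED13L had 115 per Mb, KLF4 to ACTL7B 113 and PTPRU to MATN1 112, and TBX3 and KLF4 encode transcription factors. Long deserts with many peaks but lower density were CITED2 to LOC124901415 (137 peaks, 75.6 per Mb), MAT2B to TENM2 (132 peaks, 44.6 per Mb) and ZEB2 to ACVR2A (124 peaks, 43.9 per Mb). ZEB2, a transcription factor with a known role in mouse blood stem cells, had a peak of 83.6-fold in that desert at 1173 kb from it. ZNF37A to ZNF33B held 118 peaks over 3.92 Mb, with 8 (6.78%) of at least 10-fold. No peak-free stretch was taken off the length of this desert, and 36 of its peaks formed one group of 62.7 kb. Whether it holds sequence of many copies was not tested.

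The sparsest deserts of 500 kb or more had next to none. The stretch between LOC124905368 and LOC124905938 held 0 peaks in 0.581 Mb, with no peak-free stretch taken off its length. Whether reads can be placed in this sequence was not checked, so the 0 need not mean closed chromatin. ALG10 to ALG10B, which spans a long peak-free stretch taken off its length, held 1 peak in the remaining 1.34 Mb. SOCS6 to CBLN2 held 2 peaks of 2.78- and 1.70-fold in 1.71 Mb. LOC124903767 to SHCBP1, which also touches a long peak-free stretch taken off its length, held 5 in the remaining 1.43 Mb. CBLN2 encodes a protein of synapses. The desert had 1.17 peaks per Mb, and the peaks within 250 kb of these genes were 26 on the side of SOCS6 and 0 on the side of CBLN2.

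Across the 294 deserts of 500 kb or more, a dense desert tended to have dense edges. The Spearman correlation of the density in the desert with that of the intergenic sequence within 250 kb of its genes was 0.59, and both densities share the same chromosome region and list. The desert was below its edges in 237 deserts and above them in 57. Where a desert was cut at the first peak of a chromosome, its edge also took in the sequence before that peak and could exceed 250 kb. BAGE5 to TUBA3C, with 12.6 per Mb against 0.109 in its edges, counts among the 57. So does GSTT1 to OR11H1 on chromosome 22, with 10.7 per Mb against 0.0 in its edges. Both deserts are also part of the correlation.

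The 3 gene lists were read by the peaks in deserts that a gene borders, with sequence of at least 500 kb counted per gene. Over all 557 such genes the median was 29.4 peaks per Mb, and 3.42 peaks of 10-fold or more per Mb. Of 49 transcription factors of blood development, 19 bordered a desert and 11 had at least 500 kb. Their median was 48.1 per Mb, and each of the 11 lay above 29.4, against 277 of all 557 genes. Their median for strong peaks was 7.33 per Mb. ID2 had 139 per Mb and MYC 134, and MEF2C, a factor of lymphoid and muscle development, had 72.9. The lowest was GATA3, a factor of T cells, at 31.8 per Mb. RUNX1, which blood stem cells need to form, was just under the length limit, with 67 peaks in 0.485 Mb or 138 per Mb.

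Of 70 developmental transcription factors, 40 bordered a desert and 19 had at least 500 kb. Their median was 31.6 per Mb, 11 of the 19 lay above the median of all genes, and strong peaks had a median of 3.42 per Mb. TBX3 had 115 per Mb, NR2F2 62.5 and SOX2 44.9. NR2F2 and SOX2 encode a nuclear receptor that sets vein identity in mice and a factor of stem cells. Of 59 neural adhesion genes, 48 bordered a desert and 41 had at least 500 kb. Their median was 26.4 per Mb, 14 of the 41 lay above the median of all genes, and strong peaks had a median of 3.11 per Mb. CADM1 had 73.9 per Mb, CNTNAP5 64.2 and PCDH17 51.5. Genes of 1 list can border the same desert, each desert counts for both of its genes, and the lists were chosen with earlier results of these data known, so their order is given as a description without a test.

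**Figure D5:**
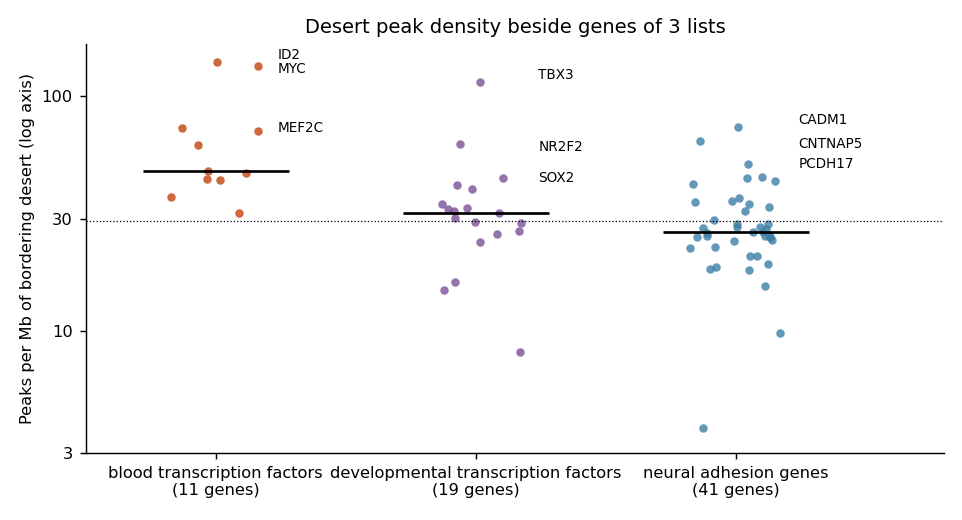
Each point is a gene of the list with at least 500 kb of bordering desert, at its peaks per Mb of that sequence (log axis); bars mark the list medians of 48.1, 31.6 and 26.4 per Mb. The dotted line is the median of 29.4 over all 557 bordering genes, and each of the 11 blood transcription factors lies above it.

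Desert peaks of 100-fold or more numbered 24, or 0.148%, against a background of 2.15% of all autosomal peaks. Of these, 15 lay in surroundings known for sequence of many copies: within 1 kb of a pseudogene of mitochondrial DNA (3 peaks), on chromosome 21 before the end of its longest peak-free stretch (11), or within 2 Mb of a longest peak-free stretch of 1 Mb or more (2, of which 1 is on chromosome 21 and counted already). These surroundings held 379 desert peaks, or 2.34%. Reads from several copies can pile up on 1 of them, and the part of this in these heights was not tested. Leaving these peaks out of every class kept the share of desert peaks at 10-fold or more at 13.7%, against 21.5% of near intergenic peaks.

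The highest desert peak, of 742-fold (chr17:22521203-22521711), lay 691 bp from the mitochondrial pseudogene MTCYBP13. A peak of 182-fold nearby (chr17:22524000-22524830) lay in MTRNR2L1. Mitochondrial DNA carries no nucleosomes and is readily cut in ATAC-seq. In all, 19 desert peaks lay within 1 kb of such pseudogenes, with a median of 7.96-fold. The 3 widest desert peaks, of 40487 to 42873 bp, covered the ribosomal RNA genes RNA45SN2, RNA45SN3 and RNA45SN1 on chromosome 21, at 600-, 577- and 581-fold. The next widest were a 12758 bp peak of 32.3-fold nearest to the lncRNA gene LOC101929814 on chromosome 1 and a 12342 bp peak of 331-fold over RNA5-8SP10. Among the 10 highest, a peak of 511-fold (chr3:93470209-93470934) stood at the edge of the longest peak-free stretch of chromosome 3. Another, of 338-fold (chr21:8986495-8988871), covered MIR10396A, with its summit 620 bp from an end of that gene.

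Near-identical copies had near-identical heights on the short arm of chromosome 21. The promoters of 3 lncRNA genes there are the same in 300 of 300 bases, so 1 sequence stands for all 3 below, with its 1 ETS match in capitals. LOC124904992 (chr21:8108192-8108491), LOC124904990 (chr21:5710123-5710422) and LOC124904989 (chr21:7142275-7142574), on the minus strand, lay under peaks of 130.1-, 129.5- and 128.7-fold. How reads were shared among the copies is not given in the sources used here, so the height of each is uncertain.
LOC124904990: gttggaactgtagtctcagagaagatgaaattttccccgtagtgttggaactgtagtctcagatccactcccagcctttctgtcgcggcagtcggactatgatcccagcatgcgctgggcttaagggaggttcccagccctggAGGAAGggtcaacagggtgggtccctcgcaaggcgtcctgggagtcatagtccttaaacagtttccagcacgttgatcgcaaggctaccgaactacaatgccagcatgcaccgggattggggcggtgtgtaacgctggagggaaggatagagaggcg

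Outside those surroundings 9 peaks reached 100-fold, and whether any of them lies in sequence of many copies was not tested. Of the 9, 3 formed one cluster. It lay between NPVF, which encodes a neuropeptide, and NFE2L3, which encodes a transcription factor of the CNC family. Its peaks had 315-fold (chr7:25861782-25863254), 131-fold (chr7:25853965-25855700) and 109-fold (chr7:25855806-25858126). The highest of them stood 290 kb from the nearest coding gene end and 29.4 kb from the nearest non-coding gene, with 18 other desert peaks within 50 kb. A peak of 152-fold (chr2:2613155-2614479) lay between MYT1L, a neuronal transcription factor, and EIPR1, 41.4 kb from the nearest non-coding gene. Another, of 118-fold, lay between NRP1, a receptor of vessels and neurons, and PARD3, with 24 other desert peaks within 50 kb.

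The other 4 of these peaks lay in or beside non-coding genes. The peak of 123-fold (chr19:27792924-27795046) covered starts of LINC00662 and LINC02987, whose annotated starts lie on opposite strands. A peak of 121-fold lay at an end of LINC02050 between ROBO1 and GBE1. One of 110-fold had its summit 55 bp from the transcribed pseudogene GUSBP1, and one of 102-fold lay in LINC02751 between INSC and SOX6. Just under 100-fold followed a peak of 99.0-fold, 4499 bp wide, beside LINC00877. In the RUNX1 to SETD4 desert the highest peak had 75.9-fold and lay in the lncRNA gene LOC100506403, 459 kb from the nearest coding gene.

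Most desert peaks were in no annotated gene at all (67.5%), against 33.5% of all autosomal peaks, and 30.6% were in lncRNA genes, against 15.0%. The rule keeps coding genes out of the deserts, so these shares are set beside each other as a description only. Ends of non-coding genes took up a small share. Within 1 kb of one lay 799 desert peaks, or 4.93%, against 8.93% of near intergenic peaks and a background of 6.6% of all autosomal peaks. The share was lower in deserts than in near intergenic sequence on 21 of 22 autosomes (exact sign test, adjusted p = 2.63e-05). In deep genic sequence it was 2.70%, and deserts were higher on 17 of 21 autosomes (exact sign test, adjusted p = 0.0108). Desert peaks at these ends had a median of 4.24-fold with 23.7% at 10-fold or more, and the other 15402 had 3.12-fold with 13.3%.

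Few annotated starts in deserts were open. Of 1436 RefSeq starts in deserts, 163 (11.4%) lay under a peak and 72 (5.01%) under a peak of 10-fold or more, whereas of 32289 starts outside deserts 68.9% lay under a peak and 58.0% under one of 10-fold or more. By the rule, the desert starts belong to genes that are not protein-coding, while those outside include coding genes, so the kinds of gene differ. Open desert starts held more CpG than closed ones. The promoter held at least 10 CpG in 43.1% of desert starts under a peak of 10-fold or more and in 7.78% of those under no peak. The medians were 5.5 and 2 CpG, and the median outside deserts was 25 under a peak of 10-fold or more. The 72 desert starts are not independent. They include the identical promoters on chromosome 21 and neighbouring starts under the same peak, such as those of LINC00662 and LINC02987.

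Motif shares were counted in these 300-base promoters without a test. On either strand, ETS letters (AGGAAG) were found in 38.9% of the 72 desert starts under a peak of 10-fold or more, 27.8% of the 1273 desert starts under no peak and 33.7% of all 33725 starts. RUNX letters (TGTGGT) were in 22.2%, 18.3% and 13.1% of the same sets. GATA letters (AGATAA) were in 16.7%, 22.8% and 10.4%, and C/EBP letters (TTGCNNAA) in 19.4%, 18.9% and 10.5%. AP-1 letters (TGANTCA) were in 8.33%, 12.9% and 7.67%, and the E-box (CACGTG), which MYC can bind, in 4.17%, 1.89% and 7.18%. With 72 starts in the first set each motif counts between 3 and 28 of them, and these starts include identical and overlapping promoters. A match gives letters in a window and not a bound site, and no motif of the list contains another.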

How the data were processed

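Each ATAC-seq library came from 50000 H1-derived blood progenitors, transposed for 45 minutes and read in pairs of 75 nucleotides, per the labels' protocols. Per the submitters' processing notes, the tools were Bowtie2 2.2.8, Trim Galore 0.6.5 and Picard 2.2.4, with GRCh38.p13 (hg38) as the build, and the peak names carry MACS 2.1.0 and GENCODE 36, per the values in the deposited list. Filters on duplicates or mitochondrial reads, a transposase shift, and which libraries were pooled are not given in the sources used here. The authors' list gives each peak coordinates, a score, a linear ratio to background at the summit, here called fold enrichment, and −log10 p-values (q-values were not used). The deposited fold and −log10 p follow 1 background of 93.5 for the whole genome, with 100% of pileups under 1000 whole to within 0.1. Such a background does not correct for copy number or mappability, and the number of weak peaks grows with pooled depth. Depth per library is unknown, and there are no replicates.

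Genes and promoters came from RefSeq tables of GRCh38.p14 (56756 autosomal genes, 19126 of them protein-coding), whose chromosome coordinates do not differ from the earlier patch. Starts and miRNA hairpins on chromosome 8 were not analysed here, nor was genome sequence under peaks. Motif shares were therefore counted in promoters, a choice made after the files were seen. Density is per Mb between the first and last peak of a chromosome, less its longest peak-free stretch where that is 1 Mb or more. Autosomes, not libraries, were the units of the exact two-sided sign tests, with Benjamini-Hochberg adjustment over 12 tests and a threshold of 0.05, so p-values describe this list and not a population of cultures. Autosomes without a peak of the comparison class were left out. The named peaks are the 10 highest, the 5 widest and the 10 highest at non-coding gene ends. The named deserts are the 10 with most peaks and, of those of 500 kb or more, the 10 densest and 5 sparsest. Up to 3 genes a list and the 5 largest joined groups were also named, not every one of these is described, 1 of the sparsest deserts is not reported here, and other named genes, peaks and promoters were picked with their values in view. The desert rule and the gene lists were chosen with earlier results of these data known. Alternatives changed the distance, the peaks used, the genes that bound deserts and the windows. The tests were tested on simulated data. Python 3.11.15, numpy 2.4.6, pandas 2.3.3, scipy 1.17.1 and matplotlib 3.10.9 were used.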

Additional observations from a re-analysis of the deposited data

How the results depend on the processing

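Values are the ratio of the desert value to that of the comparison class. Against near intergenic peaks, 49 of 51 alternatives kept the direction and the side of the threshold, and density ratios ran from 0.154 to 0.381 around 0.316. The exceptions came when every RefSeq gene bounded a desert, which left 497 peaks on 18 autosomes: the fold ratio was 0.811 and the ratio of the share at 10-fold or more 0.521, both no longer past the threshold. Against deep genic peaks, the density ratio lost its call at 0.794 with 500 kb and at 0.408 with every RefSeq gene. The fold ratio turned to 1.01 with 100 kb and to 1.01 when the 50% of peaks with weaker p-values were dropped. The ratio of the share at 10-fold or more turned to 1.03 with 100 kb and to 1.13 with every RefSeq gene. Passing the threshold only under an alternative were width at 0.975 and close neighbours at 0.917 with 100 kb, and close neighbours at 0.951 with a 25 kb window. The causes were not tested. The alternative without peaks in the surroundings known for sequence of many copies was added after seeing the data. No paired analysis was possible because the list holds no value for any library, and for the same reason no library could be left out. Depth sets how many weak peaks a list holds, and an absent peak is one not called at this pooled depth.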
